A study of Saccharomyces cerevisiae with 4 samples.

Results

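The 9 genes described here encode the zinc transporters of the budding yeast Saccharomyces cerevisiae. They were chosen by their systematic names, ZRT1 (YGL255W), ZRT2 (YLR130C), FET4 (YMR319C), ZRT3 (YKL175W), ZRC1 (YMR243C), COT1 (YOR316C), ZRG17 (YNR039C), MSC2 (YDR205W) and YKE4 (YIL023C), and all 9 were read on all 4 arrays of the series, of 6063 genes read on any array. Of the 9, 6 are in the study's list of earlier targets of the zinc-responsive activator Zap1, namely ZRT1, ZRT2, FET4, ZRT3, ZRC1 and ZRG17, and 3 are not, namely COT1, MSC2 and YKE4. That list holds only the earlier targets that also rose in the experiment E3, described below. The study lists the remaining earlier targets apart, and none of the 3 genes is among them. Every culture was of the wild-type laboratory strain DY1457, which is haploid and of mating type alpha. In the experiment called E3, test cells carried the plasmid pYef2 with Zap1TC, an allele of ZAP1 whose activation domains respond poorly to zinc, under the galactose-inducible GAL1 promoter, and reference cells carried pYef2 alone. Both were grown for 20 to 24 h in SD medium, which is zinc-replete, with 2% galactose and 1 μM ZnCl2, to an OD600 of about 0.8. These cells still held their own chromosomal ZAP1. In the experiment called E4, no plasmid was used, and cells grown in low zinc medium with 3 μM ZnCl2 (LZM3) were compared with cells grown in the same medium with 3 mM ZnCl2 (LZM3000), for 14 to 16 h and to an OD600 of about 0.7. This medium holds 1 mM EDTA and 20 mM citrate, both of which bind metals. Each experiment was done with 2 independent pairs of cultures, and each pair was hybridised to 1 array of spotted DNA, with the test culture's cDNA in Cy5 and the reference culture's in Cy3.

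Zinc is a cofactor of many enzymes and zinc fingers, and yeast keeps its free level low by moving the metal across membranes. Zrt1 and Zrt2 bring zinc across the plasma membrane with high and low affinity, and Fet4 carries iron, copper and zinc with low affinity. Zrc1 and Cot1 load zinc into the vacuole, where it is stored, and Zrt3 releases it again. Zrg17 and Msc2 form a complex that supplies zinc to the endoplasmic reticulum, and Yke4 also acts in that compartment. In zinc-limited cells Zap1 binds zinc-responsive elements in the promoters of its target genes and activates many of them, and ZRT1 is its best known target. In the study ZRT2 was an exception: it rose in mild zinc deficiency, and Zap1 repressed it when deficiency was severe, LZM3 included. Zrt1, Zrt2, Zrt3 and Yke4 belong to the ZIP family, and Zrc1, Cot1, Zrg17 and Msc2 to the cation diffusion facilitators.

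The arrays held readings for 5295 to 5934 genes each. The log2 ratios of the 2 arrays correlated across genes, which are not independent replicates, with a Pearson's r of 0.944 over 5780 genes in E3 and 0.94 over 5129 genes in E4. Among the transporter genes the arrays of an experiment differed by 0.11 to 0.251 in E3 and by 0.0018 to 0.397 in E4 on the log2 scale, and the largest difference between the 2 spots of a gene on 1 array was 0.16. Of the 36 values of a gene on an array, 4 rested on 1 spot. These were ZRT2 on array 1 of E3 and FET4, MSC2 and YKE4 on array 2 of E3. All 68 spots of the 9 genes were well above background in both channels, that is, more than 2.6 SD (of all local backgrounds in the channel) above their own local background. Of all spots on an array, 95.3% to 99.9% passed this cut in Cy3 and 85.5% to 97.7% in Cy5. The lowest signal among the 68 spots was only 1.4 times its local background. The dyes had the same orientation on all 4 arrays, so a gene-specific dye effect was not removed from any ratio. The alpha-specific genes MF(ALPHA)1, MF(ALPHA)2 and STE3 were read above background on all 4 arrays. Of 4 a-specific genes, 4 and 3 were read on the arrays of E3, all above background. On those of E4, 1 and 0 were read, none above background. The others had no spot in the E4 data, so their level there was not measured. As nearly all spots passed the cut in E3, passing it says little about the expression of a gene. The mean log2 ratios of the alpha-specific genes were -1.25, -1.56 and -1.02 in E3 and 0.20, -3.28 and -0.91 in E4, in the order named, and their part in the results was not tested.

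The targeted gene, ZAP1 (YJL056C), read 6.84 and 6.47 on the log2 ratio scale on the arrays of E3, and 1.44 and 1.62 on those of E4. Its mRNA was 101-fold higher in Zap1TC cells than in vector cells and 2.89-fold higher in LZM3 than in LZM3000, with adjusted p of 2.24e-12 and 2.83e-07 from limma. The array does not separate the chromosomal ZAP1 from the allele on the plasmid. Between E4 and E3 its log2 ratio differed by -5.12 (adjusted p = 3.84e-08, limma).

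Genes were tested with limma, a linear model whose spread is shared between genes and, here, between both experiments, with p-values adjusted over all genes by the Benjamini-Hochberg method at a threshold of 0.05. In E3, 8 of the 9 transporter genes were higher in Zap1TC cells, where 29.4% of all 5780 genes tested were called higher, and COT1 was lower, where 29.4% were called lower. In E4 all 9 were called higher in LZM3, against 25.9% of 5129 genes, COT1 by a call that was lost under 6 of 13 alternatives, and 0 lower, against 25%. Most genes were therefore called in each experiment, and a call alone sets a gene apart little. The study's own rule asks for a mean of at least 1.5-fold and at least 1.4-fold on each array. It was passed by 7 of the 9 genes in E3, the 6 earlier targets and YKE4, against 7.01% of all genes. In E4 it was passed by the 6 earlier targets and by none of COT1, MSC2 and YKE4, against 4.64% of all genes. The median log2 ratio of the 9 genes was 0.86 in E3 and 0.95 in E4, and that of all genes tested was 0 in both. The study placed the 6 targets in its list partly by their ratios on the E3 arrays, so their direction in E3 is not independent evidence. The E4 arrays were not part of that choice. However, the targets had first been picked in earlier work partly as higher in low than in high zinc, on other arrays. A rise of theirs in E4 is therefore not free of selection on the response to zinc.

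**Figure D1:**
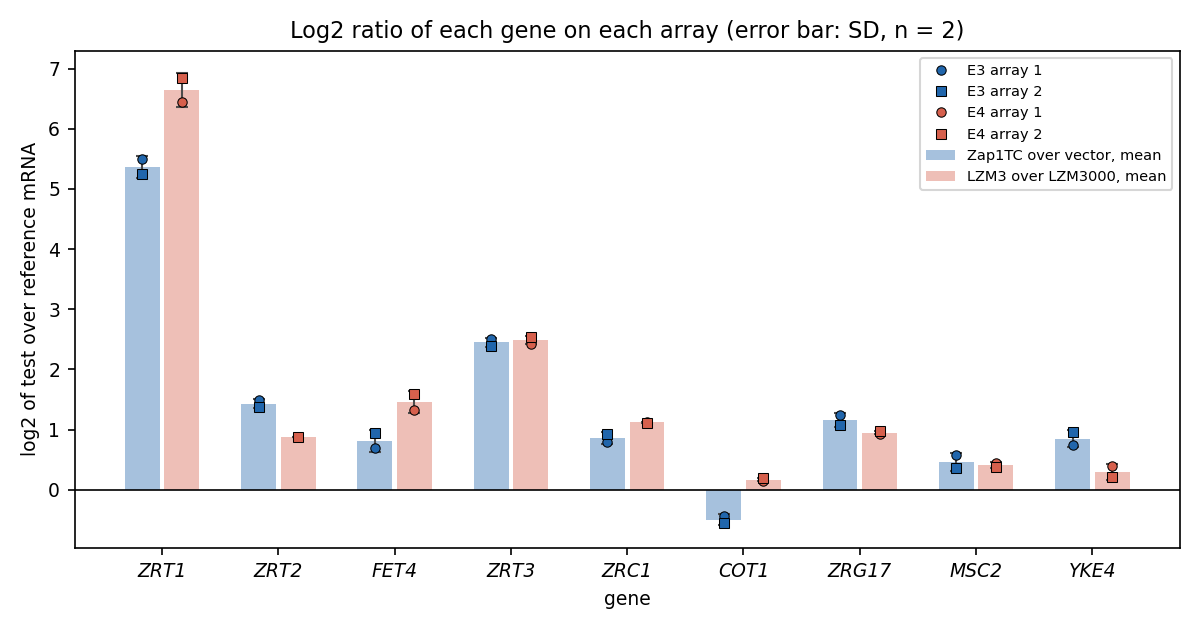
Log2 ratio of test over reference mRNA of each transporter gene on each array (circles, array 1; squares, array 2), with the mean as a bar and the SD of 2 arrays as the error bar, in blue for Zap1TC over vector (E3) and in red for LZM3 over LZM3000 (E4). ZRT1 and ZRT3 stand above the other genes in both experiments, and COT1 is the gene with a negative mean, -0.50 in E3.

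The genes of zinc uptake at the plasma membrane all rose in both experiments and gave the widest range of ratios. For ZRT1, the high-affinity importer, the mean spot intensities in Cy5 were 6266 and 3986 in Zap1TC cells against 157 and 109.7 in Cy3 in vector cells. In LZM3 cells they were 9135 and 12580, against 149 and 165.6 in LZM3000 cells. The reference signal of ZRT1 was thus near the local background in both experiments, at 2.84 and 2.26 times the background in E3 and at 1.66 and 1.47 times in E4. The log2 ratios were 5.49 and 5.24 in E3 and 6.44 and 6.84 in E4, and those of the experiments did not overlap. ZRT1 mRNA was 41.1-fold higher in Zap1TC cells (log2 ratio 5.36 ± 0.18, SD, n = 2, limma adjusted p = 2.11e-11) and 99.9-fold higher in LZM3 cells (6.64 ± 0.28, adjusted p = 3.28e-12). It held rank 5 of 5780 genes by log2 ratio in E3 and rank 4 of 5129 in E4. Its fold depended on how the background was treated: plain subtraction gave 6.02 in E3 and 7.46 in E4 on the log2 scale, and the authors' deposited values, with no background removed, gave 5.19 and 5.90.

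ZRT2, the low-affinity importer of the same family, rose far less. Its spots read 396.5 and 323.4 in vector cells and 1087 and 847.7 in Zap1TC cells, and 327.5 and 432.4 in LZM3000 cells against 555.6 and 772 in LZM3 cells. Intensities belong to different probes, so they give no order of level between genes. The log2 ratios of ZRT2 were 1.49 and 1.38 in E3 and 0.87 and 0.87 in E4, so that both arrays of E3 lay above both arrays of E4. The rise was 2.7-fold in Zap1TC cells (1.43 ± 0.07, SD, n = 2, limma adjusted p = 3.67e-08) and 1.83-fold in LZM3 cells (0.87 ± 0.00, adjusted p = 1.92e-06). The order of the experiments was thus the opposite of that of ZRT1. The part of the repression of ZRT2 by Zap1, which the study reports for severe deficiency, was not tested. On the log2 scale the ratio of ZRT1 exceeded that of ZRT2 by 3.93 ± 0.10 in E3 and by 5.77 ± 0.28 in E4 (SD, n = 2).

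FET4, the transporter of iron, copper and zinc, gave dim spots in galactose medium, with 109.4 and 96.42 in vector cells and 169.4 and 168.5 in Zap1TC cells. In LZM its spots read 178 and 245.2 in the reference and 371.1 and 640 in the zinc-limited culture. Its log2 ratios were 0.69 and 0.94 in E3 and 1.33 and 1.59 in E4, with both arrays of E4 above both of E3. FET4 rose 1.76-fold in Zap1TC cells (0.81 ± 0.18, SD, n = 2, limma adjusted p = 1.21e-05) and 2.76-fold in LZM3 cells (1.46 ± 0.18, adjusted p = 2.56e-07). With plain background subtraction the log2 ratio in E3 was 1.33. Genes of iron uptake moved in the same experiment: of 20 genes of the iron regulon, 17 were higher and 1 lower in LZM3, against 25.9% and 25% of all genes, with a median log2 ratio of 0.98. In E3 10 were higher and 2 lower, against 29.4% of all genes either way, with a median of 0.17. Their part in the FET4 result was not tested.

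**Figure D2:**
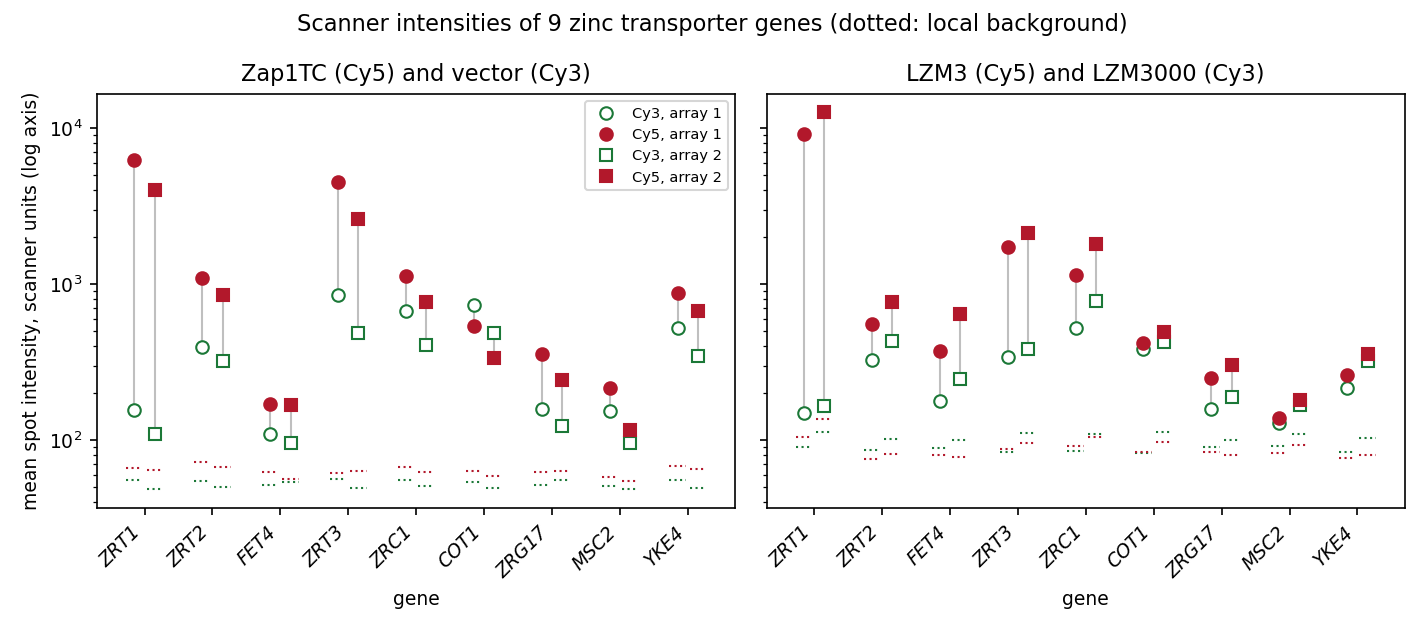
Mean scanner intensity of each gene's spots on a log axis, in Cy3 for the reference culture (open green) and Cy5 for the test culture (filled red), on array 1 (circles) and array 2 (squares) of E3 (left) and E4 (right), with the local background of each channel dotted. The grey line that joins the channels is longest for ZRT1, whose reference signal lies close to the background, and it runs downward from Cy3 to Cy5 for COT1 in E3 alone.

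Among the genes of the vacuole, the exporter and the importers differed. ZRT3, which releases stored zinc to the cytosol, read 850.9 and 486 in vector cells and 4530 and 2618 in Zap1TC cells, and 341 and 385.4 in LZM3000 cells against 1720 and 2114 in LZM3 cells. Its log2 ratios of 2.51 and 2.39 in E3 and of 2.43 and 2.54 in E4 overlapped. ZRT3 mRNA rose 5.47-fold in Zap1TC cells (2.45 ± 0.08, SD, n = 2, limma adjusted p = 1.08e-09) and 5.6-fold in LZM3 cells (2.49 ± 0.07, adjusted p = 5.82e-10). It held rank 8 of 5780 in E3 and rank 13 of 5129 in E4.

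ZRC1, which imports zinc into the vacuole, had log2 ratios of 0.79 and 0.93 in E3 and of 1.12 and 1.11 in E4. Its spots read 675.6 and 404.1 in vector cells and 524.8 and 782.2 in LZM3000 cells, well clear of the background in both media. It was 1.82-fold higher in Zap1TC cells (0.86 ± 0.10, SD, n = 2, limma adjusted p = 1.29e-06) and 2.17-fold higher in LZM3 cells (1.12 ± 0.01, adjusted p = 3.09e-07). The rise of the exporter exceeded that of this importer by 1.59 ± 0.18 in E3 and 1.37 ± 0.08 in E4 on the log2 scale (SD, n = 2).

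COT1, a close relative of ZRC1 that imports zinc and cobalt into the vacuole, was the transporter gene that fell. It read 728.7 and 488.5 in vector cells and 537 and 336.5 in Zap1TC cells, and both arrays showed the lower value in Zap1TC cells. In E4 the channels lay close together, at 381.4 and 428.2 in LZM3000 cells and 420.1 and 490.8 in LZM3 cells. The log2 ratios were -0.44 and -0.56 in E3 and 0.15 and 0.19 in E4. COT1 mRNA was 1.41-fold lower in Zap1TC cells (-0.50 ± 0.09, SD, n = 2, limma adjusted p = 6.39e-05), a fall that did not meet the study's fold rule applied downward. In LZM3 cells it was 1.13-fold higher (0.17 ± 0.03, adjusted p = 0.0419), and this call was lost under 6 of 13 alternative settings, with adjusted p of up to 0.257. In those 6 settings its log2 ratio lay between 0.12 and 0.19. The log2 ratio of ZRC1 exceeded that of COT1 by 1.36 ± 0.18 in E3 and 0.94 ± 0.04 in E4 (SD, n = 2). Whether the spots of these related genes share signal was not tested.

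Of the genes of the endoplasmic reticulum, ZRG17 rose most in both experiments. Its log2 ratios were 1.24 and 1.07 in E3 and 0.93 and 0.97 in E4, from intensities of 157.4 and 122.9 in vector cells and 159.4 and 188.3 in LZM3000 cells. The rise was 2.23-fold in Zap1TC cells (1.16 ± 0.12, SD, n = 2, limma adjusted p = 2.26e-07) and 1.93-fold in LZM3 cells (0.95 ± 0.03, adjusted p = 1.55e-06). The ZRG17 reference signal in E4 was only 1.76 and 1.88 times the local background. With plain subtraction its log2 ratio was 1.54 in E3 and 1.31 in E4, and in the authors' deposited values 1.05 and 0.71. MSC2, whose product is the partner of Zrg17, had log2 ratios of 0.57 and 0.36 in E3 and of 0.45 and 0.37 in E4. It was called higher in both experiments, but only by 1.38-fold in Zap1TC cells (0.46 ± 0.15, adjusted p = 2.08e-04) and by 1.33-fold in LZM3 cells (0.41 ± 0.05, adjusted p = 7.58e-04), and it passed the fold rule in neither. Its spots were dim in LZM, with 128.8 and 166.8 in the reference, which is 1.42 and 1.53 times the local background. The size of the MSC2 change depended on the background: the log2 ratio was 0.71 in E3 and 0.77 in E4 with plain subtraction, at which it passed the fold rule in both, and 0.23 in E4 in the authors' deposited values. The ratio of ZRG17 exceeded that of its partner by 0.69 ± 0.03 in E3 and by 0.54 ± 0.09 in E4 on the log2 scale (SD, n = 2).

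YKE4, a ZIP transporter of the endoplasmic reticulum, read 525.6 and 343.8 in vector cells and 869.8 and 674.7 in Zap1TC cells. In LZM the channels were closer, at 216.6 and 320.4 in LZM3000 cells and 262.2 and 355.8 in LZM3 cells. The log2 ratios were 0.75 and 0.96 in E3 and 0.40 and 0.21 in E4, with no overlap. YKE4 was 1.81-fold higher in Zap1TC cells (0.85 ± 0.14, SD, n = 2, limma adjusted p = 4.11e-06), beside ZRC1 and FET4 in size and past the fold rule, although it is not among the study's earlier targets. In LZM3 cells it was 1.23-fold higher (0.30 ± 0.13, adjusted p = 6.24e-03). Without the first array of E4 that ratio was 0.21 and the adjusted p was 0.127, and with plain subtraction the adjusted p was 0.0568.

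By log2 ratio in E3 the genes fell in the order ZRT1, ZRT3, ZRT2, ZRG17, ZRC1, YKE4, FET4, MSC2 and COT1. Of these, ZRC1, YKE4 and FET4 overlapped on their arrays and had no order among themselves, and the other neighbours in that order did not overlap. In E4 the order was ZRT1, ZRT3, FET4, ZRC1, ZRG17, ZRT2, MSC2, YKE4 and COT1, in which MSC2 and YKE4 alone overlapped. No difference between genes was tested, and parts of the order depended on the background. Without background correction ZRT2 at 0.78 stood above ZRG17 at 0.73 in E4. With plain subtraction ZRG17 at 1.31 stood above ZRC1 at 1.17 in E4. In E3 plain subtraction put FET4 at 1.33 above ZRC1 and YKE4, both at 0.94. ZRT1 and ZRT3 led in both experiments, and the main exchange of places was that of ZRT2 and FET4.

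The difference between the experiments was tested for each gene as a contrast of the 2 ratios, with 4992 genes tested. It sets the response to low zinc in LZM against that to Zap1TC in galactose medium, and it holds the change of medium and carbon source too. Of the 9 genes, 4 had a higher ratio in E4, where 26.5% of all genes did, and 2 had a higher ratio in E3, where 21.6% of all genes did. ZRT1 had the largest difference among them, 1.28 on the log2 scale (95% interval 0.98 to 1.59, limma adjusted p = 8.95e-05), which makes its ratio 2.43-fold larger in E4. It was 0.71 in the authors' deposited values. COT1 followed with 0.67 (0.48 to 0.87, adjusted p = 2.51e-04) and FET4 with 0.65 (0.39 to 0.91, adjusted p = 1.56e-03), while the difference of ZRC1 was small at 0.26 (0.06 to 0.45, adjusted p = 0.0373). The call of FET4 was lost with plain subtraction (adjusted p = 0.1), and that of ZRC1 under 7 of 12 alternatives.

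In the other direction, the ratio of ZRT2 was 1.48-fold smaller in E4 than in E3, a difference of -0.56 (-0.76 to -0.37, limma adjusted p = 6.09e-04). YKE4 gave -0.55 (-0.79 to -0.32, adjusted p = 2.06e-03). For the remaining genes no difference passed the test. The intervals were -0.17 to 0.24 for ZRT3 (adjusted p = 0.778), -0.27 to 0.17 for MSC2 (adjusted p = 0.678) and -0.41 to 0.00 for ZRG17 (adjusted p = 0.0905). Depending on the processing, ZRG17 did pass, with -0.29 to -0.35 under 4 of 12 alternatives, and ZRT3 passed with -0.33 under loess within print-tip blocks (adjusted p = 0.0114). Among the uptake genes, ZRT1 and FET4 thus had the larger ratio in E4 and ZRT2 in E3.

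**Figure D3:**
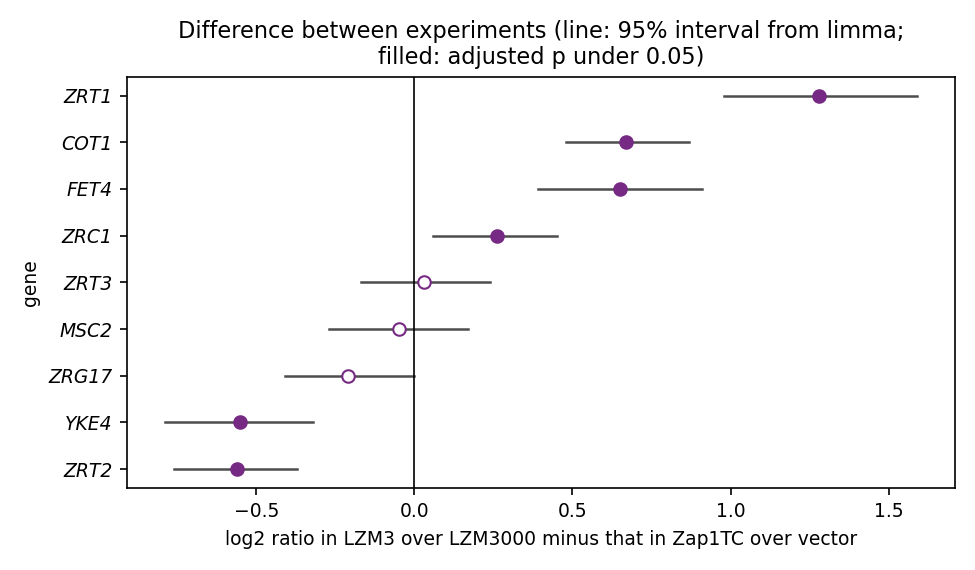
Difference of the log2 ratio between the experiments, LZM3 over LZM3000 minus Zap1TC over vector, for each transporter gene (point), with the 95% interval from limma (line). Filled points passed an adjusted p of 0.05; ZRT1, COT1, FET4 and ZRC1 lie above 0, YKE4 and ZRT2 below, and the intervals of ZRT3 and MSC2 span 0.

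Set beside the other genes of the study's list of earlier targets, the transporters covered much of the same range. The list holds only earlier targets that rose on these E3 arrays, so the direction of its genes in E3 was fixed by the choice. Its genes had also first been picked partly as higher in low zinc on other arrays, which bears on their direction in E4. Of the 27 other listed genes the median log2 ratio was 1.27 in E3. In E4 24 of the 25 read on both arrays were higher, against 25.9% of all genes, with a median of 1.16. The medians of the 6 listed transporters were 1.30 and 1.29. Above ZRT1 in E3 stood YOR387C at 7.23, VEL1 at 6.77, ZAP1 at 6.65 and ZPS1 at 6.29, and in E4 ZPS1 at 7.32, YOR387C at 7.15 and VEL1 at 6.79. At the other end of the list, ADE17 had a log2 ratio of 0.14 in E4 (limma adjusted p = 0.154).

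Transporters of other metals were called in E3 about as often as all genes. Of 24 genes for the transport of iron, copper, manganese, calcium, magnesium and other ions, 23 were tested in E3, where 7 were higher and 8 lower, against 29.4% of all genes either way, with a median log2 ratio of -0.08. SMF3, for vacuolar iron, was highest at 0.64, and MRS4, a mitochondrial iron carrier, lowest at -0.50. In E4, 16 of 24 were higher and 4 lower, against 25.9% and 25% of all genes, with a median of 0.38, and the largest ratios were those of the iron uptake genes FET3 and FTR1, at 2.00 and 1.65. The copper importer CTR1 had the next, at 1.60.

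The protein families of these genes also hold transporters of other metals. Of the 5 ZIP genes, ATX2, a Golgi transporter linked to manganese, was lower in E3, at -0.35 (limma adjusted p = 5.97e-04), and higher in E4, at 0.46 (adjusted p = 1.52e-04), while ZRT1, ZRT2, ZRT3 and YKE4 were higher in both. Its value in E4 was above the 0.30 of YKE4. Of the 6 cation diffusion facilitators, the mitochondrial iron genes MMT1 and MMT2 had log2 ratios of -0.35 and -0.18 in E3 and of -0.24 and 0.16 in E4. COT1, at -0.50 in E3 and 0.17 in E4, had the sign of MMT2 in both experiments. No difference between members of a family was tested.

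**Figure D4:**
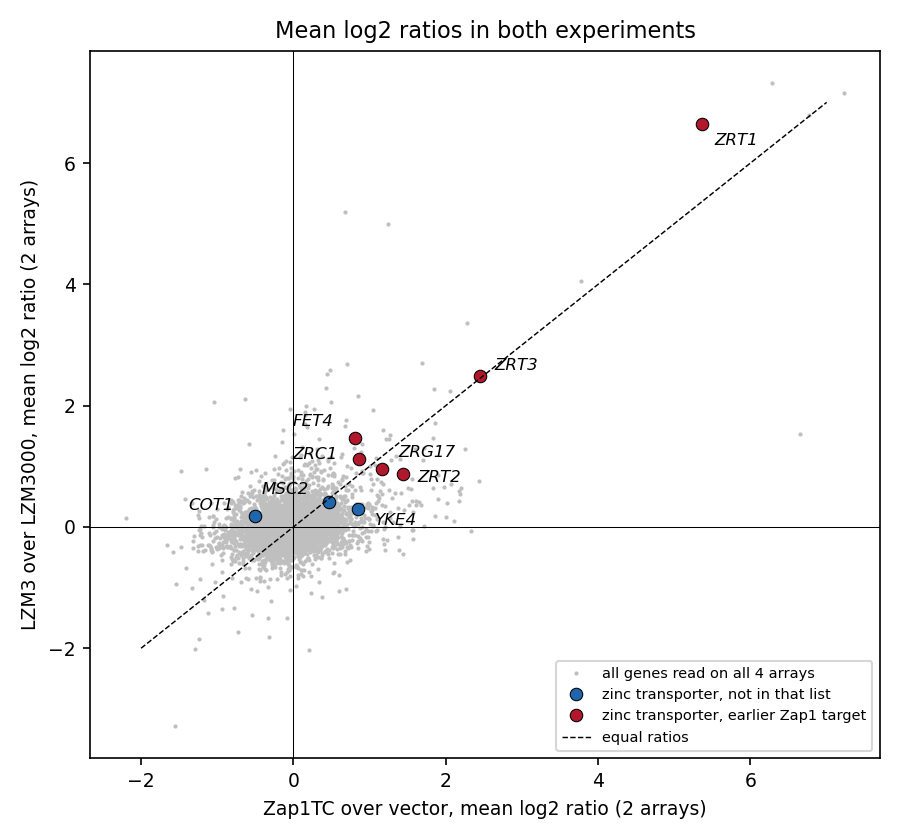
Mean log2 ratio in Zap1TC over vector (horizontal) against that in LZM3 over LZM3000 (vertical) for all 4992 genes read on all 4 arrays (grey), with the earlier Zap1 targets among the transporters in red, the other transporters in blue and equal ratios as a dashed line. ZRT1 and ZRT3 lie far from the bulk of genes, at 5.36 and 6.64 and at 2.45 and 2.49, and MSC2, YKE4 and COT1 lie within or at the edge of it.

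For each transporter gene with a mean log2 ratio of at least 1 in size in either experiment, the 2 genes with the most similar ratios were found by Euclidean distance over the 4 arrays, among 4991 other genes. For ZRT1 they were ZPS1, for a cell wall protein similar to metalloproteases, at a distance of 1.66, and VEL1, of unknown function, at 2.03. For ZRT3 they were MNT2, a mannosyltransferase gene, at 0.67, and ATG41, which the study names ICY2, at 0.90. The genes nearest to ZRT2 were MPC3, for a subunit of the mitochondrial pyruvate carrier, at 0.26, and PTR2, for a peptide permease, at 0.37. For FET4 they were YLL020C at 0.36 and PUT4, the proline permease gene, at 0.38. PUT4 was also nearest to ZRC1, at 0.26, ahead of the CTP synthase gene URA8 at 0.29. ZRG17 had PLN1, for a lipid droplet protein, at 0.09, and ISF1 at 0.30. Of these neighbours, ZPS1, VEL1, MNT2, ATG41 and YLL020C are in the study's list of earlier targets, and MPC3, PLN1 and PUT4 are among its new candidate targets. The study chose both partly by the ratios on these arrays. The distances were longest for ZRT1 and ZRT3, the genes with the highest ratios.

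The genes next to the transporters on the chromosomes, by their order in the RefSeq annotation of assembly R64, were also read. Of the 18 flanking genes 16 were tested, and 4 were higher and 6 lower in E3, near the 29.4% of all genes called either way, with a median log2 ratio of -0.04. In E4, 9 were higher and 4 lower, against 25.9% and 25% of all genes, with a median of 0.27. ADH4 stood apart from the rest. It lies beside ZRT1, encodes an alcohol dehydrogenase and is itself in the list of earlier targets, and its mean log2 value was 3.78 ± 0.04 with Zap1TC and 4.05 ± 0.07 in low zinc (SD, n = 2). FZF1, on the other side of ZRT1, fell in both experiments, by 0.69 and 0.90 on the log2 scale (limma adjusted p = 5.77e-06 and 1.52e-06). LST4 and TPO5, on either side of ZRT3, had log2 ratios of 0.16 and 0.02 in E3 and of 0.52 and 0.50 in E4, well under the 2.45 and 2.49 of ZRT3 itself. TPO5 was also an earlier Zap1 target, left out of the list because it did not clearly rise in the study's E3 data. Beside COT1, SFG1 fell by 0.93 in E3 and by 1.35 in E4 (adjusted p = 5.15e-07 and 3.90e-08), and the other neighbour was not read. The flanking genes were added to the genes described after the rule for naming genes had been set.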

How the data were processed

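Groups, replicate numbers and dyes came from the sample labels and the study's methods. The scanner files hold, as deposited, the mean intensity and local background of each spot and channel for spots with no flag, and a ratio that the authors made of Cy5 over a scaled Cy3. The authors also deposited, for each spot, a log2 value of Cy5 against Cy3 after LOWESS within the slide. These correlated with loess ratios computed here without background removal at r of 0.991 to 0.997, which settles direction but not scale. On scale, ZRT1 gave 5.19 in E3 and 5.90 in E4 in the deposited values, against 5.26 and 6.01 in those loess ratios. The deposited values had column medians of -0.0211, -0.0208, -0.0201 and -0.0182. The gene names on the arrays were matched to RefSeq R64, which lists 4966 to 5430 of them per array. The main values used limma 3.58.1 in R 4.3.3, with normexp background correction (offset 50), loess within each array (span 0.3) and the mean of a gene's spots on the log2 scale. One coefficient per experiment was fitted to all 4 arrays with empirical Bayes moderation, so that p-values rest on 2 arrays per experiment and on a spread shared between them. The fit was also run on simulated data with independent normal noise. These held no dye, background or intensity effect, so that run does not bear on such errors. Alternatives were no background correction, plain subtraction, print-tip loess, median centring, leaving out dim genes, the deposited log2 ratios, each replicate left out, each experiment alone, the replicate block, eBayes with trend and robust options, and a stricter or geometric mean in the fold rule. Genes named are the 9 members, ZAP1, the 2 genes nearest to each member with a mean log2 ratio of at least 1, and the extremes of each list. The members were given by name, but they and the lists were chosen with earlier results of these data known. No sequence or coordinate is given, because the files name no genome build and no sequence was at hand; other zinc doses and times were not analysed here.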

Additional observations from a re-analysis of the deposited data

Results flagged for a closer look

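The difference in log2 ratio between the experiments, LZM3 over LZM3000 minus Zap1TC over vector, passed limma's test (adjusted p under 0.05) for 6 of the 9 transporter genes, in a contrast that called 26.5% of all 4992 genes higher and 21.6% lower. It was 1.28 for ZRT1, 0.67 for COT1, 0.65 for FET4 and 0.26 for ZRC1, all higher in zinc limitation, and -0.56 for ZRT2 and -0.55 for YKE4, both higher with Zap1TC. In each of these 6 genes the 2 arrays of one experiment lay apart from the 2 of the other. The same held for ZRG17, whose difference did not pass the test. The share of all genes with such a separation was not counted, so it sets these genes apart little. COT1 was the gene whose ratio changed sign, from -0.50 to 0.17. Medium and carbon source differ with the experiment and cannot be told apart from it.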

How the results depend on the processing

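Of 342 values of the 9 genes (3 ratios or differences each) under the alternatives, 315 kept their direction and their side of the threshold, 16 lost their call, 4 gained one and 7 changed sign. The 7 were differences between the experiments near 0. That of ZRT3, 0.03, was -0.33 under print-tip loess, the 1 of the 7 that passed the test, -0.10 without background correction, -0.03 in the deposited values and -0.02 to 0.09 with single arrays left out. That of MSC2, -0.05, was 0.05 with plain subtraction and -0.16 to 0.05 with single arrays left out. Lost calls were those of COT1 (6) and YKE4 (2) in E4 and of the differences of ZRC1 (7) and FET4 (1). The 4 gains were of ZRG17. For all genes, plain subtraction moved the count past the fold rule from 405 to 816 in E3 and from 238 to 536 in E4, the deposited values gave 157 in E4, and a mean of at least 2-fold gave 142 and 85. Under that stricter mean, 4 of the 9 transporters passed in E3 instead of 7, and 4 in E4 instead of 6. Calls of a higher difference in the 9 genes fell from 4 to 2 with plain subtraction, where those in all genes went from 1324 to 1222. Calls of a lower difference rose from 2 to 4 with print-tip loess, where those in all genes went from 1080 to 1102. Leaving out single arrays gave 786 to 1377 genes called lower in E4, against 1280. The labels do not say what same-numbered arrays shared beyond the number. Their deviations from the experiment means correlated at r = -0.0738 over 4992 genes, which are not independent. With the replicate block 1322 genes were called higher in E4, against 1328, and 8 of the 9 transporters, since COT1 was then at an adjusted p of 0.0507. Counts of zinc-responsive elements in promoters were planned and not run. With 2 arrays per experiment and 1 dye orientation, small ratios such as those of COT1, MSC2 and YKE4 in E4, and reference signals near background, are the least certain, and the causes of the shifts were not tested.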
